A study of Oryza sativa Indica Group with 8 samples.

Results

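In leaves of rice that met salt shock at the reproductive stage, 14 loci stood lower in every library than in any library of plants without that late shock, whether or not the plants had also been shocked earlier. They were chosen by their measured read counts, scaled to CPM (the reads of a locus as a share of all reads counted to loci, by plain library size, times 1000000). The lowest CPM among the 4 libraries without the late shock had to be at least 1.5 times the highest among the 4 libraries with it, and the mean of the 4 libraries without it at least 5 CPM. Of 55986 loci in the tables, 12491 reached that mean and 15 of them met the ratio. The rule then drops 1 of these, LOC_Os01g64120, which left 14.

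All plants were of BRS Ligeirinho, an indica rice labelled as sensitive to salt, raised on washed sand in a greenhouse and fed with nutrient solution. The reproductive-shock plants met salt at stage R0-R1 alone, the double-shock plants at stage V4 and again at R0-R1, the vegetative-shock plants at V4 alone, and the control plants never. Each of these 4 groups had 2 libraries of total leaf RNA, with 10464740 to 11727657 reads counted to loci per library. Salt dose, shock length and the time at which leaves were taken are not stated in the labels, so an effect of the late shock and one of any difference in collection time cannot be told apart. Whether the replicates are different plants is not stated either, and the p-values below may reflect technical spread alone.

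Salt around the roots first limits the uptake of water, and sodium and chloride then build up in the leaf blades, which in sensitive rice brings early leaf ageing and lost photosynthesis. Leaves answer through abscisic acid and ion transport, and many transcripts of growth and assimilation are known to fall under such stress. An earlier exposure can alter the response to a later one, which is called stress memory, and the pairing of a vegetative with a reproductive shock addresses that. The tables give identifiers alone, and 0 of all 55986 loci could be paired with an entry of the RefSeq gene table of assembly ASM3414082v1. No name or role is therefore given to the 14, and the leaf label was not tested against marker genes.

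The 14 loci were spread over 8 chromosomes, going by the first number of their identifiers. There were 4 on chromosome 3, 2 each on chromosomes 2, 4 and 9, and 1 each on chromosomes 1, 6, 7 and 12. None was a close neighbour of another: the smallest gap between the running numbers of 2 members on 1 chromosome was 19590, where 50 or fewer was taken as close. In abundance they ranged from LOC_Os01g25484, at rank 231 by mean CPM, to LOC_Os02g07830, at rank 11326.

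**Figure D1:**
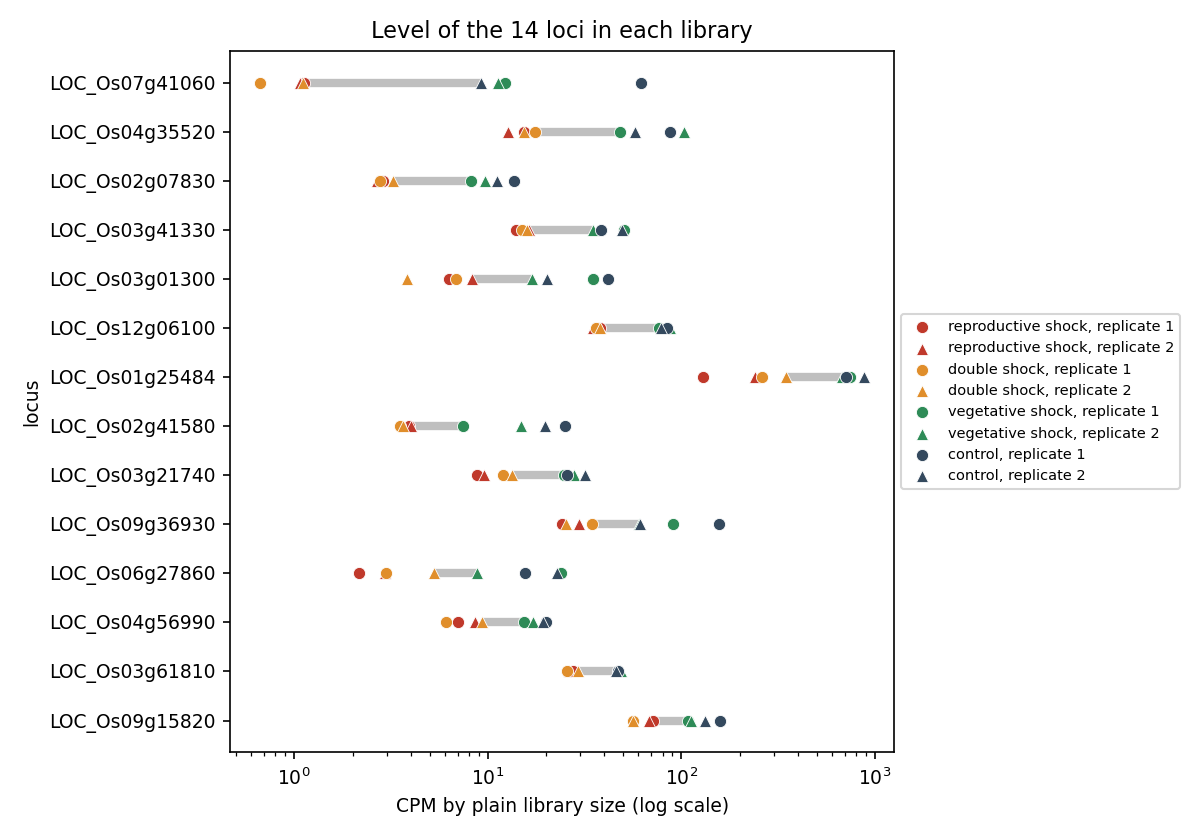
The CPM of each of the 14 loci (log scale) in each of the 8 libraries, coloured by group, with circles for replicate 1 and triangles for replicate 2. The grey bar of each locus spans the gap between the highest library with the late shock and the lowest without it, which the rule required and which is widest for LOC_Os07g41060, from 1.13 to 9.23 CPM.

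The largest separation was that of LOC_Os07g41060 on chromosome 7. It had 1.13 and 1.08 CPM in reproductive-shock libraries (13 and 12 reads) and 0.669 and 1.11 CPM in double-shock libraries (7 and 13 reads), against 12.2 and 11.3 CPM in vegetative-shock and 62.2 and 9.23 CPM in control libraries. The 4 libraries with the late shock were all close to 1 CPM, and control replicate 1 stood 6.75 times above control replicate 2. The mean of the 4 libraries without the late shock was 23.9 times that of the 4 with it, the widest ratio of means among the 14, and it rests in part on control replicate 1. Control replicate 2, the lowest library without the late shock, had 100 reads. These are bulk leaf samples, in which fewer cells of a type and less RNA per cell cannot be told apart.

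The most abundant member, LOC_Os01g25484 on chromosome 1, had 129.6 and 241.1 CPM in reproductive-shock libraries and 262.4 and 347.0 CPM in double-shock libraries, against 741.7 and 679.3 CPM in vegetative-shock and 710.2 and 876.0 CPM in control libraries. Among the libraries with the late shock the highest was 2.68 times the lowest, the widest such spread of the 14, while those without it differed by at most 1.29 times. This locus alone made up 36.8% to 61.2% of the summed CPM of the 14. That sum was 351.9 and 466.6 CPM in reproductive-shock libraries and 483.1 and 567.1 CPM in double-shock libraries, against 1289 and 1233 CPM in vegetative-shock and 1486 and 1437 CPM in control libraries. Without LOC_Os01g25484 the sum of the other 13 was nearly level across the libraries with the late shock, at 220.2 to 225.6 CPM, and 547.6 to 775.9 CPM in those without it.

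Several members were steady within both sides. LOC_Os12g06100 (chromosome 12) had 37.9 and 35.1 CPM after the reproductive shock and 36.2 and 38.0 CPM after both shocks, against 76.7 and 87.3 CPM after the vegetative shock and 84.1 and 78.8 CPM in control. LOC_Os03g61810 (chromosome 3) had 27.6 and 26.2 CPM in the reproductive-shock libraries and 25.8 and 29.4 CPM in the double-shock ones, against 46.9 and 48.9 CPM in vegetative-shock and 47.2 and 46.1 CPM in control libraries. In both loci the vegetative-shock and control libraries overlapped, as did the reproductive-shock and double-shock libraries. LOC_Os03g61810 had the smallest ratio of means of the 14, at 1.73, and LOC_Os12g06100 stood at 2.22. LOC_Os03g41330 (chromosome 3) had 13.9 and 16.4 CPM after the reproductive shock and 15.1 and 15.9 CPM after both, against 50.8 and 35.0 CPM after the vegetative shock and 38.5 and 49.2 CPM in control. Its libraries without the late shock spread 1.45 times, and again neither early-shock pair of groups separated.

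LOC_Os04g56990 (chromosome 4) had 7.02 and 8.61 CPM in reproductive-shock libraries and 6.12 and 9.38 CPM in double-shock libraries, against 15.4 and 17.2 CPM in vegetative-shock and 19.99 and 19.4 CPM in control libraries. LOC_Os03g21740 (chromosome 3) had 8.75 and 9.59 CPM after the reproductive shock and 11.9 and 13.4 CPM after both, against 24.6 and 27.9 CPM after the vegetative shock and 25.8 and 31.6 CPM in control. In the first of these loci both vegetative-shock libraries lay below both control libraries, and in the second both double-shock libraries lay above both reproductive-shock libraries. LOC_Os09g15820 (chromosome 9) had 71.2 and 68.2 CPM in the reproductive-shock libraries and 56.4 and 56.3 CPM in the double-shock ones, against 107.9 and 112.6 CPM in vegetative-shock and 159.0 and 133.1 CPM in control libraries. Here the plants with the early shock were lower on both sides of the late shock, so that its 4 groups formed 4 steps without overlap. The groups of LOC_Os02g41580 did so too, in the same order. LOC_Os09g15820 was also the member nearest the threshold.

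In 6 members the libraries without the late shock differed by more than 2 times among themselves. Beside LOC_Os07g41060, LOC_Os02g41580 (chromosome 2) had 3.90 and 4.03 CPM after the reproductive shock and 3.54 and 3.67 CPM after both, against 7.49 and 14.9 CPM after the vegetative shock and 25.0 and 19.8 CPM in control. Its 4 libraries with the late shock agreed within 1.14 times, while the vegetative-shock libraries lay between them and control. LOC_Os04g35520 (chromosome 4) had 15.3 and 12.7 CPM in the reproductive-shock libraries and 17.6 and 15.4 CPM in the double-shock ones, against 48.1 and 102.9 CPM in vegetative-shock and 87.0 and 57.9 CPM in control libraries. LOC_Os09g36930 (chromosome 9) had 24.2 and 29.7 CPM after the reproductive shock and 34.7 and 25.2 CPM after both, against 90.5 and 60.3 CPM after the vegetative shock and 156.3 and 61.4 CPM in control. The replicate that stood high differed between these loci: vegetative replicate 2 for LOC_Os04g35520 and control replicate 1 for LOC_Os09g36930.

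LOC_Os03g01300 (chromosome 3) had 6.33 and 8.34 CPM in the reproductive-shock libraries and 6.88 and 3.84 CPM in the double-shock ones, against 35.0 and 16.9 CPM in vegetative-shock and 41.6 and 20.3 CPM in control libraries. LOC_Os06g27860 (chromosome 6) had 2.17 and 2.96 CPM after the reproductive shock and 2.96 and 5.29 CPM after both, against 23.8 and 8.80 CPM after the vegetative shock and 15.6 and 22.9 CPM in control. In both loci vegetative replicate 1 stood more than 2 times above vegetative replicate 2, the reverse of LOC_Os04g35520. LOC_Os02g07830 (chromosome 2), the least abundant member, had 2.86 and 2.69 CPM in the reproductive-shock libraries and 2.77 and 3.24 CPM in the double-shock ones, against 8.15 and 9.68 CPM in vegetative-shock and 13.7 and 11.2 CPM in control libraries. It had 29 to 38 reads in the libraries with the late shock and 86 to 152 in those without it, and both its vegetative-shock libraries were below both control libraries.

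Across the 14, the ratio of the mean without the late shock to the mean with it ran from 1.73 to 23.9 with a median of 3.154, and it was at least 2 in 13. Libraries without the late shock spread more widely than those with it in 10 of the 14. The median ratio of the highest to the lowest library was 1.41 over the 4 libraries with the late shock and 1.58 over the 4 without it. Control replicate 1 was the highest library for 7 members, and reproductive replicate 1 the lowest for 5. The shares of all loci with such a wider spread or with these extreme libraries were not counted. Control replicate 1 stood above control replicate 2 in 10 of the 14 and in 67.5% of loci with a mean of at least 5 CPM. Reproductive replicate 1 stood above reproductive replicate 2 in 6 of the 14 and in 67.9% of those loci. Control replicate 1, double-shock replicate 1 and reproductive replicate 2 had 13.5% to 13.8% of their listed reads aligned to more than 1 place, against 9.32% to 9.99% in the other 5 libraries. These 3 libraries fall on both sides of the late shock, and the part of that share in the levels was not tested.

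**Figure D2:**
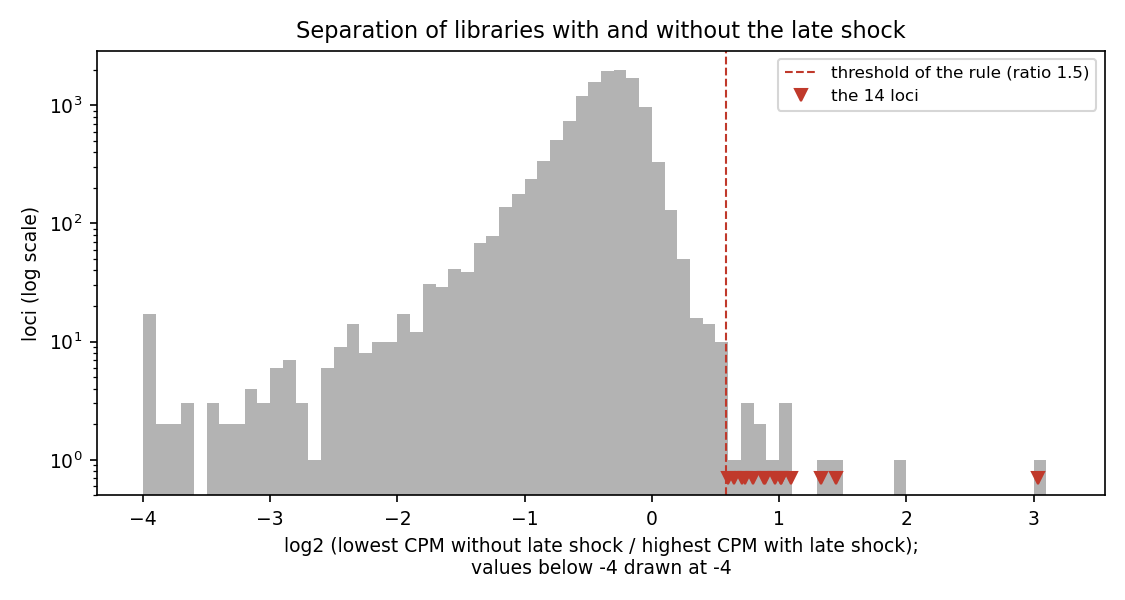
Histogram of the log2 ratio of the lowest CPM without the late shock to the highest CPM with it, over loci with a mean of at least 5 CPM without the late shock (loci on a log axis). The dashed line is the rule's ratio of 1.5 and triangles mark the 14 loci, of which LOC_Os07g41060 stands farthest to the right; the unmarked bar near 1.9 is the locus that the rule drops.

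The threshold cut a continuous tail. The members just inside it were LOC_Os09g15820, whose ratio of the lowest library without to the highest with the late shock was 1.51, LOC_Os03g61810 at 1.57 and LOC_Os04g56990 at 1.64. Just outside it lay LOC_Os04g43390 at 1.49 (mean 92.5 CPM in the libraries with and 176.6 CPM in those without the late shock), LOC_Os01g46130 at 1.48 (2.34 and 5.004 CPM) and LOC_Os12g25200 at 1.48 (68.3 and 167.5 CPM). In all, 563 of the 12491 loci had a ratio of at least 1, 15 of at least 1.5 and 7 of at least 2, counting the locus that the rule drops. With the directions exchanged and the mean taken over the libraries with the late shock, 247 loci reached a ratio of 1, 6 of 1.5 and 2 of 2. Among the 14, the lowest library without the late shock was a vegetative-shock one in 12 and a control one in 2. The rule used that lowest value, and the share over all loci was not counted. In 10 of the 14 the vegetative-shock and control libraries overlapped.

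By a rule of likeness, the loci outside the 14 whose log2(CPM + 1) over the 8 libraries followed their mean standardised profile most closely were ChrSy.fgenesh.gene.37 (Pearson r = 0.976), LOC_Os09g32050 (r = 0.968) and LOC_Os04g43390 (r = 0.968). These values are over 8 libraries that also set the profile and are a description. ChrSy.fgenesh.gene.37 had 71.8 to 74.7 CPM in the libraries with the late shock and 86.5 to 97.5 CPM in those without it, a tight but small step.

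The fit across all loci tested 18251 of them, all 14 members included, in edgeR with 1 term for group. For the average of the late-shock differences, 13 of the 14 were called at an adjusted p below 0.05, all lower, beside 0.449% of all loci tested. For the reproductive shock over control it was 9 of 14 beside 0.614%, and for the double over the vegetative shock 2 of 14 beside 0.0712%. The members had been selected on these same differences, so these counts describe the choice and are no test. The 9 became 0 without either reproductive-shock library and 2 without control replicate 2, each of which leaves a group with 1 library. The 13 became 5 to 8 without any 1 of the libraries with the late shock. The 2 became 0 when vegetative replicate 2, double-shock replicate 1 or 1 of the reproductive-shock pair was left out, and 1 when vegetative replicate 1 or double-shock replicate 2 was.

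**Figure D3:**
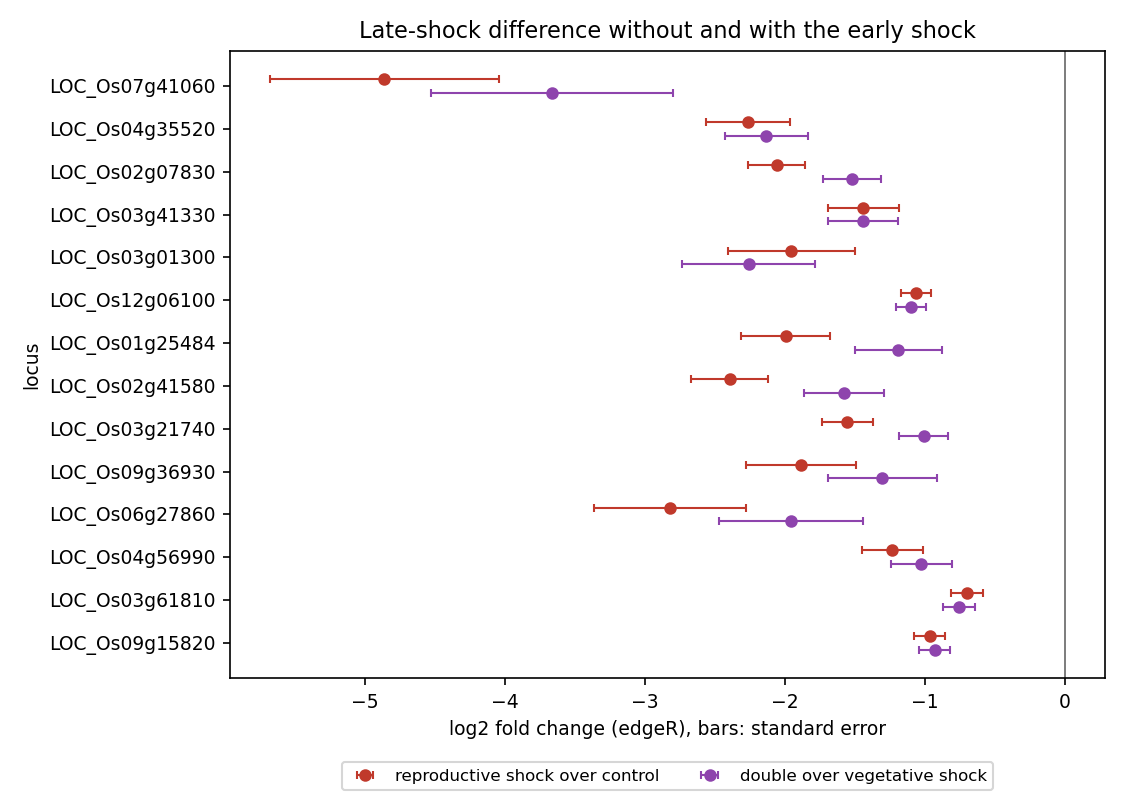
The log2 fold change of each of the 14 loci for the reproductive shock over control (red) and for the double over the vegetative shock (purple), from the edgeR fit, with bars for the standard error. All points lie below 0 as the choice of loci requires; the red point is the lower one in 10 of 14.

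The rule treats the histories alike and did not compare the size of the late-shock difference with and without an earlier shock. It did require the fall in both histories, so a locus with a fall in only 1 of them could not be a member. The comparisons share no library. In double over vegetative shock the log2 fold changes of the 14 ran from -3.66 to -0.76 with a median of -1.37. In reproductive shock over control they ran from -4.86 to -0.70 with a median of -1.92. The difference was larger in size without the earlier shock in 10 of the 14, which for loci that fall in both histories is a positive interaction. A positive interaction was found in 51.0% of all loci tested. That share includes loci that do not fall in both, for which the sign does not give the larger fall. The interaction, which tests the difference between these fold changes, was called for 0 of the 14 by edgeR and for 0 by DESeq2, beside 0.0986% of all loci tested by edgeR. None of the 14 had an unadjusted p below 0.05 for it in edgeR, beside 9.71% of all loci tested, and DESeq2 gave 1. The choice of loci limits these counts in part, by an amount that was not tested.

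The median interaction of the 14 was 0.37 on the log2 scale, against 0.0099 over all loci tested, and 0.12 without control replicate 1. The member with the smallest p was LOC_Os03g21740, at 0.55 (SE 0.25, edgeR adjusted p = 0.54), and at 0.30 without control replicate 2. LOC_Os07g41060 had the largest value, at 1.20 (SE 1.32, edgeR adjusted p = 0.82), which turned to -0.63 without control replicate 1 and was 1.97 without control replicate 2. LOC_Os01g25484 stood at 0.81 (SE 0.43), and at 0.38 without reproductive replicate 1 and 1.39 without reproductive replicate 2. LOC_Os12g06100 and LOC_Os03g61810, the steadiest members, stood at -0.04 (SE 0.15) and -0.06 (SE 0.16).

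The early shock by itself was compared in plants without the late shock, as vegetative shock over control. Both groups lie on 1 side of the rule, which did not compare them with each other. It did require both to stay above the libraries with the late shock. A locus that the early shock alone lowered to that level could therefore not be a member, which limits the counts below in part. The 14 ranged from -1.55 to 0.05 on the log2 scale with a median of -0.22, against 0.0039 over all loci tested, and 11 of 14 were negative, against 49.4% of all loci. The median was -0.41 without vegetative replicate 1 and -0.17 without vegetative replicate 2, the widest range when 1 library was left out. None of the 14 was called by edgeR or by DESeq2, beside 0.0329% of loci called by edgeR, and 4 had an unadjusted p below 0.05 in edgeR, all lower, beside 7.70% of loci in either direction.

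Those 4 were LOC_Os02g41580, LOC_Os09g15820, LOC_Os02g07830 and LOC_Os07g41060. LOC_Os02g41580 averaged 11.2 ± 5.22 CPM in vegetative-shock and 22.4 ± 3.68 CPM in control libraries (SD, n = 2 each), a log2 fold change of -1.01 (SE 0.25, edgeR adjusted p = 0.30) that was -0.66 without vegetative replicate 1. LOC_Os09g15820 averaged 110.2 ± 3.32 CPM against 146.1 ± 18.3 CPM in control (log2 fold change -0.40, SE 0.11, edgeR adjusted p = 0.37), and LOC_Os02g07830 averaged 8.91 ± 1.08 CPM against 12.4 ± 1.79 CPM in control (-0.48, SE 0.19, edgeR adjusted p = 0.59). LOC_Os07g41060 averaged 11.8 ± 0.625 CPM against 35.7 ± 37.5 CPM in control. Its log2 fold change of -1.55 (SE 0.63, edgeR adjusted p = 0.61) rested on control replicate 1: it was 0.28 without that library and -2.32 without control replicate 2. In CPM, both vegetative-shock libraries lay below both control libraries for 4 members, beside 14.8% of loci with a mean of at least 5 CPM, and above them for 0 members, beside 16.5% of those loci. These were LOC_Os02g41580, LOC_Os09g15820, LOC_Os02g07830 and LOC_Os04g56990.

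**Figure D4:**
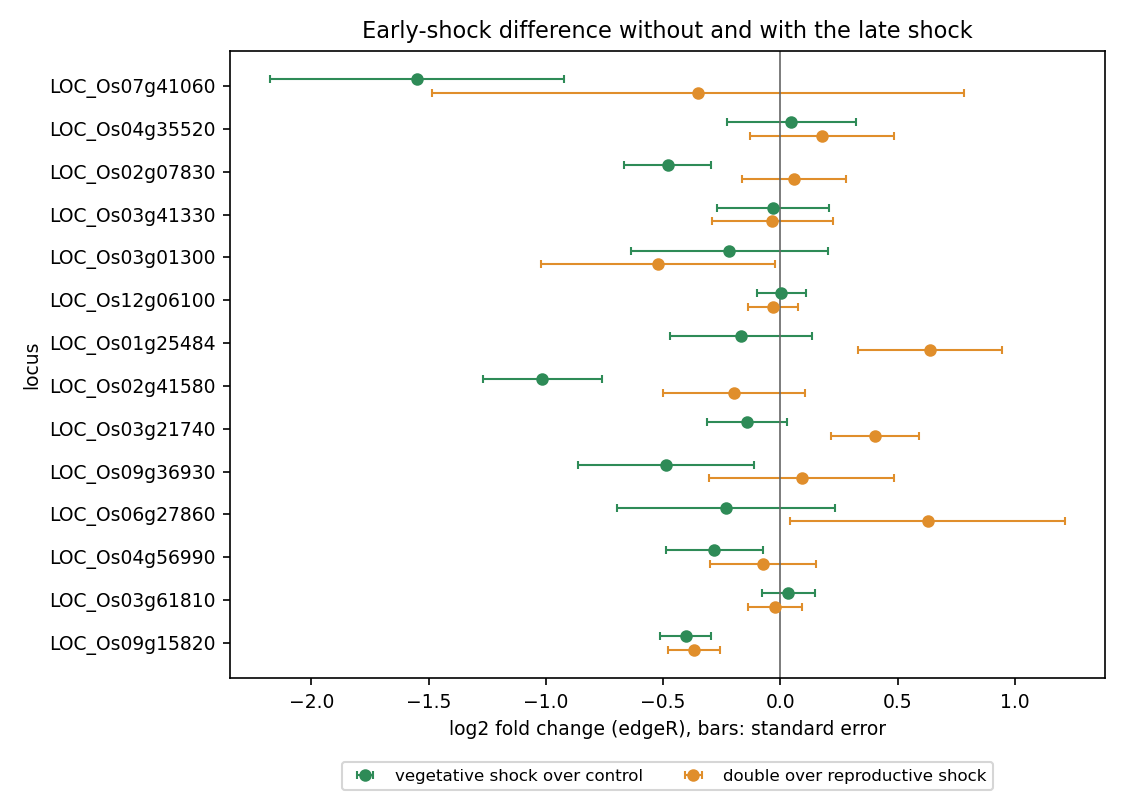
The log2 fold change of each of the 14 loci for the vegetative shock over control (green) and for the double over the reproductive shock (orange), from the edgeR fit, with bars for the standard error. Many bars cross 0. Both points lie below 0 in 6 of the 14, among them LOC_Os09g15820, at -0.40 and -0.37.

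In plants that also had the late shock, the early shock was compared as double over reproductive shock. Both groups had to lie below the libraries without the late shock. The choice therefore limits these counts, and those of the early-shock average below, in part too. The 14 ranged from -0.52 to 0.64 with a median of -0.03, against 0.01 over all loci tested, and 8 were negative and 6 positive. Leaving out the first library changed that median to -0.07 for the reproductive shock and to 0.0073 for the double shock. Leaving out the second gave 0.09 for the reproductive shock and -0.05 for the double shock. Which side they fell on depended on scaling. With plain CPM the double-shock mean was above the reproductive-shock mean for 9 members, and with TMM factors for 6. In plain CPM both double-shock libraries lay above both reproductive-shock libraries for 4 members, beside 27.1% of loci with a mean of at least 5 CPM. They lay below them for 2 members, beside 15.5% of those loci. With TMM factors these member counts were 2 and 4. By edgeR 0 of the 14 were called and 0 by DESeq2, beside 0.0% of all 18251 loci by edgeR, of which 1469 had an unadjusted p below 0.05 and 63 were called by DESeq2. The 1 member with an unadjusted p below 0.05 was LOC_Os09g15820, which averaged 56.3 ± 0.0725 CPM after both shocks and 69.7 ± 2.12 CPM after the reproductive shock alone (SD, n = 2 each; log2 fold change -0.37, SE 0.11, edgeR adjusted p = 0.51). LOC_Os01g25484 had 304.7 ± 59.8 CPM after both shocks and 185.3 ± 78.8 CPM after the reproductive shock alone (log2 fold change 0.64, SE 0.31, edgeR adjusted p = 0.64). That value was 0.22 without reproductive replicate 1 and 1.23 without reproductive replicate 2.

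Averaged over plants with and without the late shock, the early shock gave a median of -0.11 over the 14, against 0.0032 over all loci, with 9 negative and 5 positive. That median was -0.20 without vegetative replicate 1 and -0.17 without reproductive replicate 1. It was -0.06 without double-shock replicate 2, -0.04 without reproductive replicate 2 or double-shock replicate 1, and -0.03 without control replicate 1. Again 0 of the 14 were called by edgeR and 0 by DESeq2, beside 0.0% of loci by edgeR, where 1054 loci had an unadjusted p below 0.05 and DESeq2 called 14. LOC_Os09g15820, at -0.39 (SE 0.08, edgeR adjusted p = 0.72), and LOC_Os02g41580, at -0.61 (SE 0.20, edgeR adjusted p = 0.83), had an unadjusted p below 0.05. LOC_Os09g15820 was lower after the early shock in both settings by nearly the same amount, and its interaction was 0.04 (SE 0.16). LOC_Os07g41060 averaged -0.95 (SE 0.65, edgeR adjusted p = 0.88), which became -0.04 without control replicate 1.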

How the data were processed

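Leaf RNA of 8 libraries was analysed from the raw counts per locus that the authors deposited, 1 table per library with no normalisation. STAR 2.7, HTSeq 0.11.1 and Trimmomatic, with FastQC 0.11.7 and edgeR 3.8, are named in the submitters' processing notes, whose settings, build, annotation and use of strand are not given here. Counts of overlapping or duplicated loci are therefore uncertain. The 5 closing lines of each table name no locus, held 15.0% to 19.2% of listed reads and were left out. A count of 3 reads, the limit that a count of 0 allows, is 0.256 to 0.287 CPM, for counting error only. Levels are CPM by plain library size. Loci passing filterByExpr were fitted with TMM factors in edgeR 4.0.16 (R 4.3.3), with group as the only term, 4 residual degrees of freedom and a common biological coefficient of variation of 16.7%. The two-sided quasi-likelihood F test was used, with p-values adjusted by Benjamini-Hochberg over all 18251 loci, and SE is the log2 fold change over the square root of F. DESeq2 1.42.0, RLE factors, no low-count filter, robust quasi-likelihood, a replicate block and leaving out each library were alternatives. All members are named, as are the loci nearest the threshold and those most alike. Members, lists and tests were chosen with earlier results of these data known. In each group the 2 libraries differed by more than sampling noise, with a chi-square per degree of freedom of 12.4 to 14.4.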

Additional observations from a re-analysis of the deposited data

How the results depend on the processing

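Membership followed the thresholds: 6 loci with a ratio of 2, 47 with a ratio midway between 1 and 1.5, 25 with a mean of at least 1 CPM and 14 with 10 CPM. With TMM or RLE factors there were 15, of which 13 were among the 14: LOC_Os09g15820 dropped out, and all 14 kept non-overlapping sides. Leaving out 1 library can only add loci while the mean holds, and gave 15 to 48, always with the 14 among them. Replicate numbers were not taken to pair libraries. Deviations of same-numbered libraries correlated at -0.15 to 0.33 between groups. The higher values were 0.33 for double and vegetative shock, 0.28 for double shock and control, and 0.22 for reproductive shock and control. Whether same-numbered libraries were handled together was not tested. With the replicate block 0 members were called in each comparison of the early shock and for the interaction. It called 10, 2 and 13 members for the reproductive shock over control, the double over the vegetative shock and the late average. Over all loci it called 131, 14 and 106 for these comparisons, on which the members had been selected.

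Without the low-count filter 2 members were called for the vegetative shock over control (LOC_Os02g41580 and LOC_Os07g41060), beside 499 loci in all. For the double over the reproductive shock 1 was called (LOC_Os01g25484), beside 501, and for the early average 1 (LOC_Os07g41060), beside 301. The interaction had 1 (LOC_Os01g25484), beside 646. The reproductive shock over control and the double over the vegetative shock had 14 each, beside 1291 and 706. DESeq2 called 14 and 12 in these last 2 comparisons, beside 431 and 102 loci in all. The members had been selected on both. The number of loci tested without the filter is not given, so these are counts and not shares. The cause of the larger counts was not tested. Leaving out 1 library gave 0 to 1 member for the vegetative shock over control, where LOC_Os07g41060 ran from -2.32 to 0.28. It gave 0 for the other early-shock comparisons and the interaction, where LOC_Os07g41060 ran from -0.63 (without control replicate 1) to 1.97. The counts were 0 to 10 for the reproductive shock over control, 0 to 3 for the double over the vegetative shock and 5 to 14 for the late average. Fits that leave a group with 1 library assume that it varies like the others and have less power.

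Over all loci, calls without the filter were 499 for the vegetative shock over control, 501 for the double over the reproductive shock, 301 for the early average, 646 for the interaction, 1291 for the reproductive shock over control, 706 for the double over the vegetative shock and 1224 for the late average, against 6, 0, 0, 18, 112, 13 and 82 with it. DESeq2 gave 128, 63, 14, 175, 431, 102 and 312 in the same order. Robust quasi-likelihood gave 14, 2 and 53 for the vegetative shock over control, the double over the reproductive shock and the interaction, and the replicate block 11 for the first. Leaving out 1 library gave 0 to 52, 0 to 17, 0, 0 to 55, 1 to 143, 0 to 28 and 14 to 89. Over 13 alternatives the sign of a member's fold change was kept in 166 of 182 values for the vegetative shock over control. It was kept in 175 for the double over the reproductive shock, 170 for the early average and 167 for the interaction. Members that kept their sign in all 13 numbered only 4, 9, 8 and 6 of the 14, in the same order. LOC_Os07g41060, with 7 to 13 reads in the libraries with the late shock, is the member that depth limits most.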
